A study of Mus musculus with 2 samples.

Results

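Trp53, which encodes the transcription factor p53, and 9 of its target genes with roles in growth arrest were described in mouse embryonic stem (ES) cells kept in suspension with or without doxycycline (dox). The 10 genes were Trp53, Mdm2, Cdkn1a, Ccng1, Plk2, Plk3, Gadd45a, Btg2, Phlda3 and Zmat3. They were chosen by name, and all 10 were among the 14261 rows of the deposited expression table. RNA-seq was run on 2 cultures of the cells labelled TRE-ESCs, both in N2B27 medium with LIF, a cytokine, and 2i, inhibitors of kinases in the ERK and GSK3 pathways, in dishes of low adsorption. Dox was added to 1 culture and left out of the other, and both carried the label 36 h. The sources used here do not give the construct in these cells, their strain or the number of clones. Per its title, the study was about how ES cells in suspension respond to c-Jun, the AP-1 transcription factor subunit that Jun encodes.

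In unstressed cells p53 is held low by the ubiquitin ligase MDM2, whose own gene is a p53 target, so that the pair forms a feedback loop. After DNA damage or other stress p53 is stabilized, mostly at the level of the protein, and switches on genes that stop the cell cycle, repair DNA or start cell death. The best known arrest target is Cdkn1a, which encodes p21, an inhibitor of cyclin-dependent kinases. Mouse ES cells carry much Trp53 RNA and protein, cycle quickly and have a short G1 phase. In fibroblasts c-Jun has been reported to bind a variant AP-1 site in the mouse Trp53 promoter and to lower its transcription. Neither p53 protein, its modification nor DNA binding was measured here, and the values below are RNA only.

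The sequences just around the start sites are shown first because the members answer to p53 and the treatment concerns an AP-1 subunit. RefSeq promoter windows on GRCm38.p6, 250 bases before to 50 bases after a start site, were found for 9 of the 10 members, and Cdkn1a had 2 such windows. A p53 full site was taken as 2 p53 decamers in a row, 20 bases, with the C and G of each decamer core fixed and at most 2 mismatches elsewhere. Such a site stood in the windows of 2 of the 9 members, Cdkn1a and Ccng1, and in 0.392% of the 27025 genes with a window. Both are printed with the core C and G of each decamer in capitals, and each had 1 mismatch.
Cdkn1a p53 site: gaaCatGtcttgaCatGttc
Ccng1 p53 site: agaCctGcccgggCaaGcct
The Cdkn1a site lies at chr17:29090928-29090947 on the plus strand, 51 to 32 bases before the upstream of the 2 RefSeq start sites and 2822 bases before the downstream one. The Ccng1 site lies at chr11:40755462-40755481, 195 to 176 bases before the start, and is given on the minus strand, that of the gene. With up to 3 mismatches a site was also found in the Trp53 window, and the share over all genes was then 1.63%. The windows of the other 6 members, and the downstream window of Cdkn1a, held no match, which says nothing of sites outside them.

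The windows were also searched on both strands for the AP-1 heptamer TGANTCA, the variant TGACTCT and the octamer TGACGTCA, a site of ATF and CREB factors that Jun heterodimers can also use. No matches overlapped each other in the members' windows. TGANTCA was in none of the 9 members' windows and in 8.97% of all genes. TGACTCT was in 1 member's window, that of Trp53, and in 5.81% of all genes. A variant AP-1 site had already been reported in the Trp53 promoter, as said above, so that match is no new result. TGACGTCA was in the windows of Plk2 and Btg2 and in 2.03% of all genes. The windows of Trp53, Plk2, Cdkn1a (upstream start) and Ccng1 follow, each on the strand of its gene, with the matched motif or p53 site in capitals.
Trp53, plus strand, chr11:69580109-69580408: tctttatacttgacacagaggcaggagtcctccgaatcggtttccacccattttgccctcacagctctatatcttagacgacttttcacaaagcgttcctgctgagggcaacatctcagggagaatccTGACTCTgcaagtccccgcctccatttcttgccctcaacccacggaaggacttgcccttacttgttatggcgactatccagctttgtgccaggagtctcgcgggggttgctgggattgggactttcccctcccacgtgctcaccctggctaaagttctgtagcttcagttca
Plk2, plus strand, chr13:110394794-110395093: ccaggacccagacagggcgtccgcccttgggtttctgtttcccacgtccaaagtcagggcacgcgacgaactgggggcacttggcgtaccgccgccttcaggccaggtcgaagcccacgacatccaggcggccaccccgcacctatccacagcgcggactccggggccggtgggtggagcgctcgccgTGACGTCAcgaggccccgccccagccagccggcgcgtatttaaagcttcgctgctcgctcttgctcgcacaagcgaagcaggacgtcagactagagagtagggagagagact
Cdkn1a, plus strand, chr17:29090729-29091028: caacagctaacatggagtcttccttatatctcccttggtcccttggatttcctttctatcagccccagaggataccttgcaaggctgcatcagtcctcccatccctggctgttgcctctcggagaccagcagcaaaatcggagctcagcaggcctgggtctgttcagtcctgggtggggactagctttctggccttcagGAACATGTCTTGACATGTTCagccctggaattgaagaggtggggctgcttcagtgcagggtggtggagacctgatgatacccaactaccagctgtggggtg
Ccng1, minus strand, chr11:40755237-40755536: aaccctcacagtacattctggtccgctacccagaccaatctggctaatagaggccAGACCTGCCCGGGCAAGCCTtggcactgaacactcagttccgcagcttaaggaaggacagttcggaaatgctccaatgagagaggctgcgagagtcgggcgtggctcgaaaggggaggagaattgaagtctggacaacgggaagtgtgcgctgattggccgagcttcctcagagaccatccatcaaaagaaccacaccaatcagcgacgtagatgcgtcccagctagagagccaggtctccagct
The TGACTCT of Trp53 lies 122 to 116 bases before the start, at chr11:69580237-69580243. The TGACGTCA of Plk2 lies 62 to 55 bases before the start and that of Btg2 166 to 159 bases before it. These matches are descriptions of sequence, and binding to them was not measured.

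Values are whole numbers on a count scale that the authors had normalized, with the same quartiles of 14, 62 and 184 in both libraries, so the sequencing depth of a library is unknown. There was 1 library per group, hence no replicate check, no SD and no test, and every difference compares 2 libraries and not 2 conditions. Ratios were computed after adding a pseudocount of 10 to each value, which draws the ratio of a low gene toward 1, and 2-fold was used as the threshold of description. A floor of 50 on the larger of both values was passed by 8547 genes, among them all 10 members. Jun itself stood at 55 without dox and 3821 with dox. The ES cell genes Pou5f1, Sox2 and Nanog had the values 3230, 1042 and 2508 without dox and 3572, 521 and 623 in its presence. In all, 7 of 10 ES cell markers were at least 2-fold lower with dox, against 5.49% of the 8547 genes. Nanog was among the 7, and Pou5f1 and Sox2 were not. In bulk RNA fewer cells of a type and less RNA per cell cannot be told apart. Of 12 fibroblast markers only Fn1, which is also made by other cells, reached the floor, and the other 11 summed to 73 without dox and 127 with dox, with Dcn, Lum and Twist2 listed at 0 in both. The 7 blood and endothelial markers with a row summed to 293 and 448. Of these, Csf1r went from 1 to 111, Cd68 from 19 to 96, Ptprc from 0 to 19 and Tek from 52 to 64. Pecam1 went down from 205 to 152, and Itgam and Kdr each from 8 to 3. The part of other cell types in the values below was not tested.

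Trp53 had a lower value with dox, whereas 8 of its 9 targets had a higher one. The targets past 2-fold were the kinase genes Plk3 and Plk2 and the growth arrest gene Gadd45a. The genes most often used as readouts of p53, Cdkn1a and Mdm2, were within 2-fold. Over the 10 members 3 were at least 2-fold higher and 0 at least 2-fold lower, against 9.23% and 5.49% of the 8547 genes. The median log2 ratio of the members was 0.64 and that of all genes was −0.08. Ratios above 1 were seen in 8 members, against 44.1% of all genes, and ratios below 1 in 2 members, against 54.9%. The 10 members were chosen by name, with earlier results of these data known, so these counts describe the list and are no test of it.

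**Figure D1:**
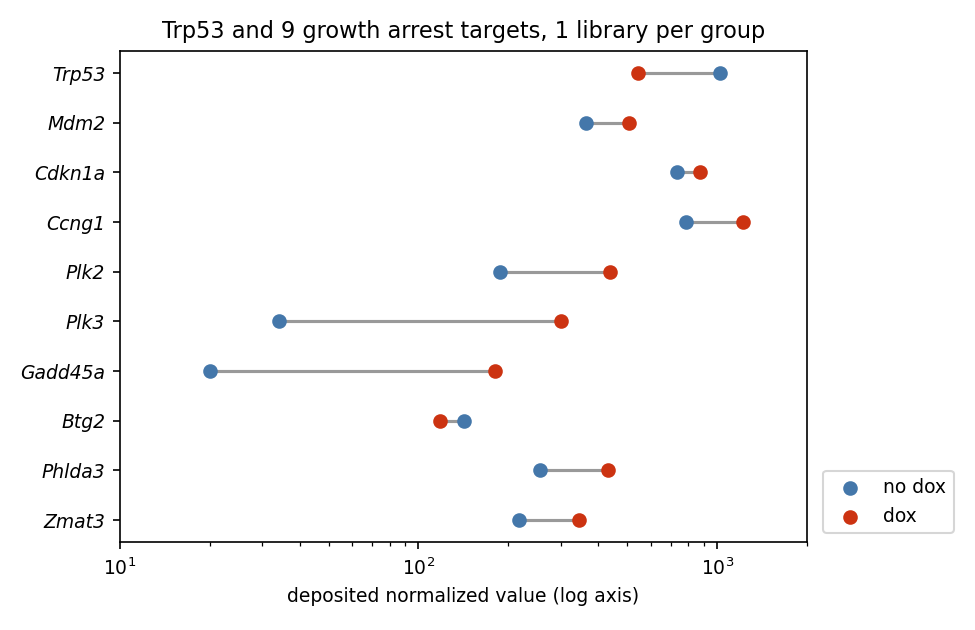
Deposited normalized value of each member (log axis) in the library without dox (blue) and the library with dox (red), joined by a line; there is 1 library per group and no error bar. Trp53 moves from 1023 to 541 and Btg2 from 142 to 118, whereas the other 8 genes have the red point to the right, farthest for Plk3 (34 to 301) and Gadd45a (20 to 181).

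The regulator and its feedback partner went in opposite directions, both within 2-fold. Trp53 stood at 1023 without dox and 541 with dox, 1.87-fold lower, a log2 ratio of −0.91, which is inside the 2-fold threshold. Only 7.21% of the 8547 genes had a lower ratio. By value it was row 404 from the top without dox and row 1016 with dox. The Trp53 gene (ENSMUSG00000059552.13) lies on the plus strand of chromosome 11 from 69580359 to 69591873 in GRCm38. Its longest transcript shares a stretch of 353 nt, at 97.7% identity, with the pseudogene Trp53-ps, so reads of that stretch could be split between them. Mdm2, which encodes the ligase that ubiquitinates p53, stood at 365 without dox and 505 with dox, 1.37-fold higher, a log2 ratio of 0.46. Mdm2 spans bases 117688875 to 117710758 of chromosome 10, minus strand. The table gave 1 value per gene, so transcripts from the p53-dependent internal promoter of Mdm2 and from its upstream promoter could not be separated.

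Cdkn1a and Ccng1, which carry the printed p53 sites, had high values in both libraries. Cdkn1a stood at 735 without dox and 874 with dox, 1.19-fold higher, a log2 ratio of 0.25 that 70.3% of genes lay below. It lies on the plus strand of chromosome 17 from 29090976 to 29100727. Of its transcript 262 nt are also part of the unnamed antisense transcript AC167363.2. Ccng1, which encodes cyclin G1, an atypical cyclin that recruits the phosphatase PP2A to MDM2, stood at 787 and 1223, 1.55-fold higher, with a log2 ratio of 0.63 above those of 84.6% of genes. Its difference of 436 between the libraries was the largest gain of any member in the deposited units.

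The polo-like kinase genes Plk2 and Plk3 were both higher with dox. Plk2, a kinase of centriole duplication and of the stress response, stood at 188 without dox and 437 with dox, 2.26-fold higher, a log2 ratio of 1.17 above those of 92.9% of genes. Plk3, a kinase activated by DNA damage and cell stress that can phosphorylate p53, stood at 34 without dox and 301 with dox, 7.07-fold higher, a log2 ratio of 2.82. Among the 8547 genes 132 had a higher ratio than Plk3. Plk3 spans bases 117128655 to 117133963 of chromosome 4, minus strand, and 84 bases of it overlap Tctex1d4 on the other strand. Plk2 lies on the plus strand of chromosome 13 from 110395046 to 110400844. Its window with the octamer TGACGTCA is printed above, and that of Plk3 held none of the motifs searched.

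Gadd45a, which encodes a small protein that binds PCNA, p21 and the mitotic kinase CDK1, stood at 20 without dox and 181 with dox. It was 6.37-fold higher, a log2 ratio of 2.67, and 153 of the 8547 genes had a higher ratio. Gadd45a spans bases 67035096 to 67037457 of chromosome 6, minus strand. It overlaps the noncoding gene E230016M11Rik on the other strand, with which its transcript shares 238 nt. The sources used here do not say whether the counting used strand, so reads of Gadd45a, Plk3 and Cdkn1a may include those of their antisense partners. The value of 20 without dox is low enough for the ratio to depend on the pseudocount, and the log2 ratio was 3.12 with a pseudocount of 1 and 1.72 with 50. For Plk3 these were 3.11 and 2.06.

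The remaining targets were within 2-fold. Phlda3, which encodes a pleckstrin homology protein that keeps the kinase AKT off the membrane, stood at 256 without dox and 430 with dox, 1.65-fold higher. Zmat3, which encodes a zinc finger protein that binds RNA and is also known as Wig1, stood at 217 and 344, 1.56-fold higher. The log2 ratios of these genes were 0.73 and 0.64, above those of 86.7% and 84.9% of genes. Btg2, an antiproliferative gene whose product recruits the CCR4-NOT deadenylase, stood at 142 without dox and 118 with dox, a log2 ratio of −0.25, and 37.9% of genes had a lower one. It was the only target with a lower value with dox. At a threshold of 1.5-fold Ccng1, Phlda3 and Zmat3 joined the higher genes, which made 6, against 16.7% of all genes, and Trp53 was the 1 lower gene, against 17.7%.

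**Figure D2:**
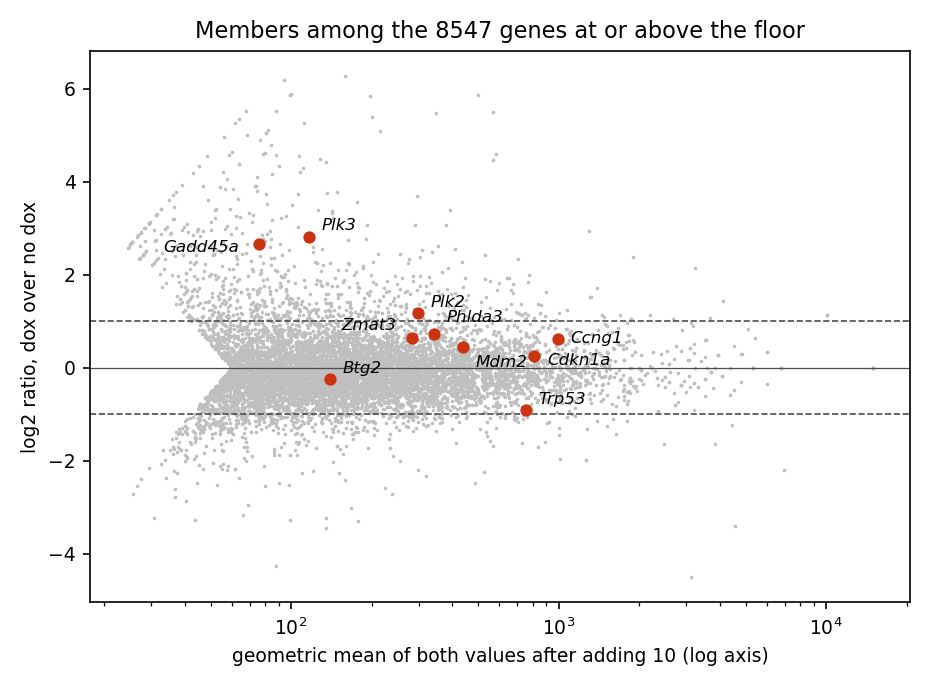
Log2 ratio of dox over no dox (vertical axis) against the geometric mean of both values after adding 10 (horizontal log axis) for the 8547 genes at or above the floor (grey), with the 10 members in red; dashed lines mark 2-fold. Plk3, Gadd45a and Plk2 lie above the upper line, Trp53 lies just inside the lower line at −0.91, and the other 6 members lie between −0.25 and 0.73.

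Levels of different genes are set side by side here per kb of the longest annotated transcript. The normalization is not stated, so a value need not scale with read counts or RNA. Whether the values had already been scaled for length is unknown as well. On this scale the level of Trp53 was 312 per kb without dox, next to Cdkn1a at 353 and above Ccng1 at 224 and Phlda3 at 178. With dox the level of Trp53 was 165 per kb. That was below Cdkn1a at 420, Ccng1 at 348 and Phlda3 at 300, and near Mdm2 at 161, Plk2 at 156 and Gadd45a at 148. The levels of Plk3 and Gadd45a were the lowest without dox, 13.5 and 16.4 per kb, and that of Plk3 with dox was 120. Btg2 and Zmat3 had the lowest levels with dox, 43.0 and 44.1 per kb. Without replicates the error in the order of neighbours on this scale is unknown.

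Paralogs of the members often had a different ratio from the member itself. Of 19 paralogs and family genes with a row 13 reached the floor, with a median log2 ratio of −0.28. Of these 13, 3 were at least 2-fold higher and 1 lower, against 9.23% and 5.49% of all genes. With a pseudocount of 50, and also with a floor of 250, 1 was higher and 0 were lower. The 13 include Gadd45gip1, at 207 and 131, which is named for an interaction with GADD45 and is no paralog. Among the polo-like kinases the mitotic Plk1, at 460 and 378, and the centriole kinase Plk4, at 197 and 194, were within 2-fold, unlike Plk2 and Plk3. In the GADD45 family Gadd45b stood at 60 and 37, and Gadd45g, under the floor, at 8 and 14. Mdm4, whose product binds p53 and blocks its activity, stood at 1137 without dox and 818 with dox, a log2 ratio of −0.47, where Mdm2 was higher. The family of Btg2 was mixed. Btg1 stood at 61 and 166, 2.48-fold higher, and Tob1 at 50 and 122, 2.20-fold higher, whereas Btg3, itself known as a p53 target, stood at 75 and 13. Phlda1, a paralog of Phlda3 known as a target of ERK signalling, stood at 9 and 275, the highest ratio of these families. The other CIP/KIP inhibitor genes were Cdkn1b, at 93 and 128, and Cdkn1c, under the floor at 6 and 5. Ccng2 was under the floor at 15 and 32. Of the p53 paralogs Trp73 was under the floor, at 15 and 7.

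**Figure D3:**
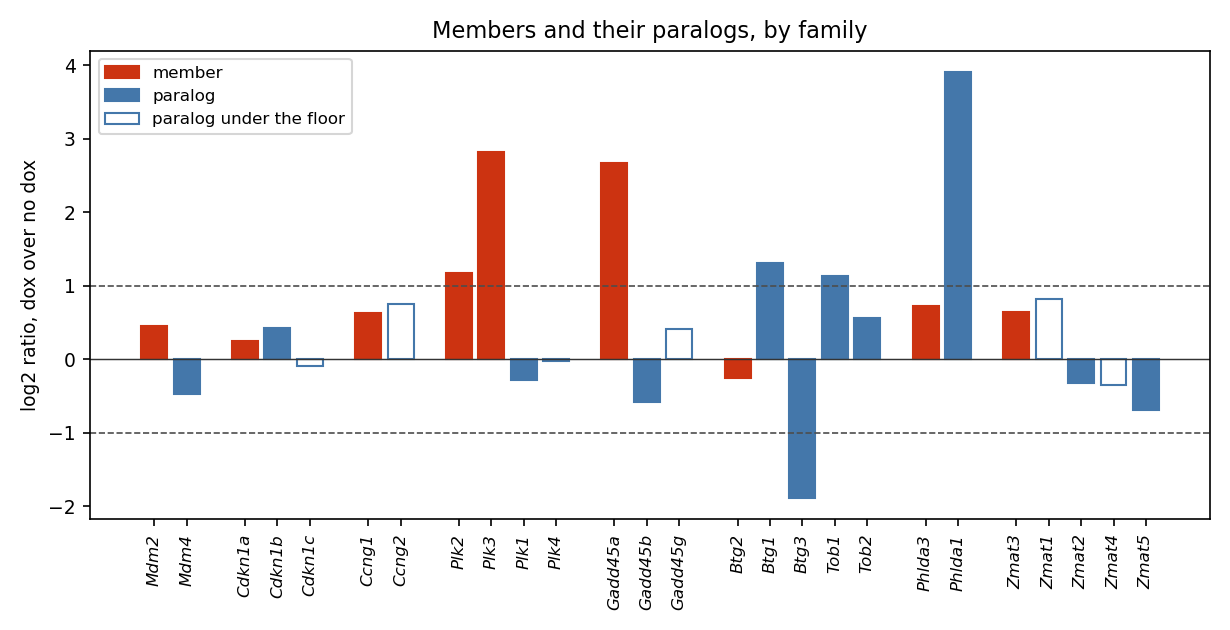
Log2 ratio of dox over no dox for the 9 targets (red) and their paralogs (blue), grouped by family; open bars are paralogs under the floor of 50, and dashed lines mark 2-fold. Plk2 and Plk3 stand above 2-fold while Plk1 and Plk4 do not, Gadd45a stands above it while Gadd45b is below 0, and in the BTG family Btg2 (−0.25) lies between Btg1 and Btg3.

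Regulators of p53 gave no common direction. Of 27 at or above the floor 1 was at least 2-fold higher and 4 were lower, against 9.23% and 5.49% of all genes. Their median log2 ratio was 0.00. With a pseudocount of 50 both counts were 0, and the lower count was 2 with a floor of 250 or with the median of all genes set to 0. The lower ones included the checkpoint kinase genes Chek1, at 245 and 102, and Chek2, at 157 and 61, whose products phosphorylate p53 or act beside it after DNA damage. Sirt1, a deacetylase of p53, went from 327 to 155. Aurka, a kinase of mitosis that can phosphorylate p53, went from 393 to 189. The methyltransferase gene Setd7 was the higher one, at 21 and 90. The kinase genes that start the damage response, Atm at 209 and 167 and Atr at 216 and 162, were within 2-fold, as was Cdkn2a, at 99 and 176, whose locus encodes both the MDM2 inhibitor ARF and the CDK inhibitor p16.

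Target genes other than the members had list medians near that of all genes, with single genes far above it. Of 14 apoptosis targets 3 were at least 2-fold higher and 1 lower, against 9.23% and 5.49% of all genes. Their median log2 ratio was −0.17. The higher ones were Perp, a desmosome-associated gene at 17 and 600, the apoptosome gene Apaf1, at 119 and 365, and Bcl2l11, which encodes BIM, at 24 and 100. The pro-apoptotic genes closest to p53 were Bax, at 696 and 477, and Bbc3, which encodes PUMA, at 56 and 35. Pmaip1, which encodes NOXA, was under the floor at 32 and 25, and Siva1 stood at exactly 2-fold, at 242 and 116. Among 25 repair, metabolic and other targets the counts were 5 and 0, against the same shares of all genes, and the median log2 ratio was 0.00. With a floor of 250 the higher count was 3. The 5 included Sfn, which encodes the epithelial 14-3-3 sigma, at 379 and 1533, the phosphatase gene Dusp1, at 113 and 610, and the mTOR inhibitor gene Ddit4, at 89 and 318. Dusp5 and Cd82, both listed at 0 in the library without dox, had the values 142 and 62 in the other. Several of these higher genes are also known to answer to pathways other than p53, and what lay behind their values was not tested. Tigar, a phosphatase of sugar metabolism, stood at 428 and 219, and the sestrin gene Sesn1 at 125 and 74.

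Of the genes that act below p21 most had a ratio below 1, and those past 2-fold were all lower. Among all genes 54.9% had a ratio below 1, and 5.49% were at least 2-fold lower. Of 19 genes for cyclins, their kinases, the RB family and E2F factors 1 was at least 2-fold lower and 0 higher, and 15 had a ratio below 1, with a median log2 ratio of −0.48. The lower one was the cyclin D1 gene Ccnd1, at 902 and 361. The kinase genes Cdk2, at 413 and 297, and Cdk4, at 1699 and 1223, and the cyclin E gene Ccne1, at 291 and 205, were within 2-fold. Of 35 genes that p53 is known to repress through p21 and the DREAM complex, 6 were at least 2-fold lower and 0 higher. The lower count was 3 with a pseudocount of 50, and also 3 with the median of all genes set to 0. In this list 30 had a ratio below 1, with a median of −0.57, and 4 genes are shared with the cyclin list. The 6 were Cdc6, at 261 and 102, Chek1, Mcm7, at 2056 and 921, Mybl2, which encodes B-MYB, at 1645 and 795, the flap endonuclease gene Fen1, at 383 and 184, and Aurka. The proliferation gene Mki67, at 438 and 486, and Foxm1, at 191 and 268, had larger values with dox, within 2-fold. Over the 124 distinct genes of the 6 other lists at or above the floor, 9.68% were at least 2-fold higher and 8.87% lower, against 9.23% and 5.49% of all genes.

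**Figure D4:**
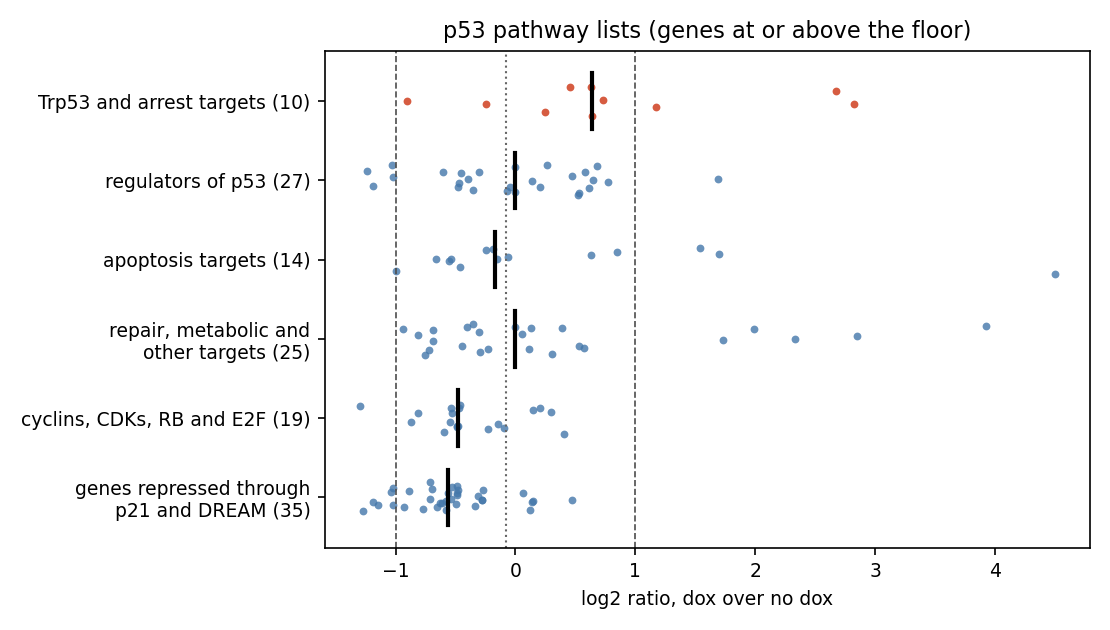
Log2 ratio of dox over no dox for the members and 5 lists of other p53 pathway genes; each point is 1 gene at or above the floor (number in brackets), black bars are list medians, the dotted line is the median of all genes (−0.08) and dashed lines mark 2-fold. The members have the highest median, 0.64, and the genes repressed through p21 and DREAM the lowest, −0.57.

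The ratios of the members kept their sign under every alternative run for them, pseudocounts of 1 and 50, no floor, a floor of 250, the median of all genes set to 0 and a trend on transcript length removed. An equal pseudocount on both values cannot change a sign, and a floor changes no ratio. Only setting the median to 0 and removing the length trend could have changed a sign. Trp53 ranged from −0.92 to −0.83 on the log2 scale, Cdkn1a from 0.24 to 0.37 and Mdm2 from 0.42 to 0.54. Zmat3, the member with the longest transcript, had 0.37 with the length trend removed, and Phlda3 had 0.96. Plk2 stayed above 2-fold, from 1.03 to 1.25. With the floor at 250 Gadd45a and Btg2 were left out, since neither value of theirs reached it.

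**Figure D5:**
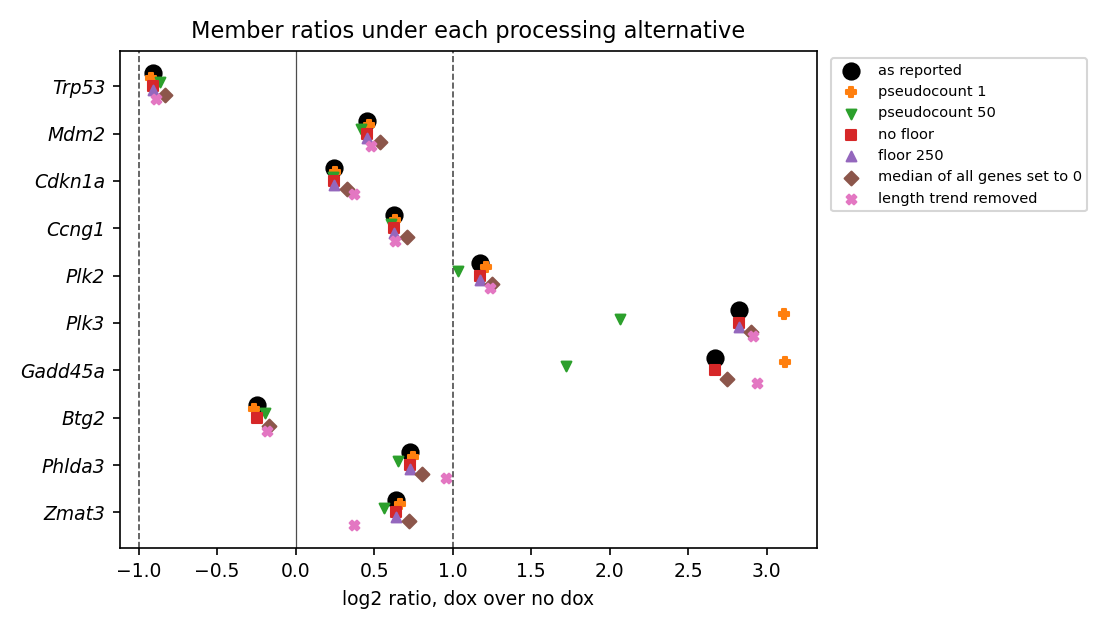
Log2 ratio of dox over no dox for each member as reported (black) and under 6 processing alternatives (coloured markers); dashed lines mark 2-fold. The markers lie close together for 8 members, whereas those of Plk3 spread from 2.06 to 3.11 and those of Gadd45a from 1.72 to 3.12, with the pseudocounts of 50 and 1 at the ends.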

How the data were processed

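Per the labels' protocols, total RNA was turned into TruSeq libraries that were read on a NextSeq 500. The submitters' processing notes name bcl2fastq, Bowtie2, RSEM and the build mm10. The deposited values were treated as a score that the authors had normalized and then rounded, since 75.5% of sorted positions were equal in both libraries. The sources used here do not state the normalization, annotation or depth. Columns of sample values that were not used numbered 0.

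A pseudocount of 10 was added to both values before the log2 ratio of dox over no dox was taken, for genes whose larger value was at least 50. Groups came from the agent label. No test was possible with 1 library per group. Members, lists and thresholds were chosen with earlier results of these data known. Every member was named. From each other list, genes past 2-fold (up to 6) were named, or where none passed up to 3 with the largest values. Members within 2-fold of the other lists were named after their values were seen.

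Coordinates, overlaps and lengths came from GENCODE M21 on GRCm38, the assembly of mm10, and 99.2% of symbols matched. Shared transcript sequence was sought with BLAST 2.17.0 at 95% identity over at least 150 nt. Promoter windows came from RefSeq on GRCm38.p6. The length trend was removed with lowess (fraction 0.3) over 8472 genes. The planned search for p53 sites in wider windows was not run, since no genome sequence was used here. The scripts, tested on simulated data, used Python 3.11.15, statsmodels 0.14.6, matplotlib 3.10.9, pandas 2.3.3 and numpy 2.4.6.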

Additional observations from a re-analysis of the deposited data

How the results depend on the processing

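No paired analysis was possible because each group holds 1 library, and for the same reason no library could be left out. Of the 58 log2 ratios of members under alternatives 56 were within 1.5-fold of the reported ratio, 2 moved further (Plk3 at 2.06 and Gadd45a at 1.72 with a pseudocount of 50) and 0 changed sign. The ratios without a floor and with a floor of 250 equal the reported ones by design. A pseudocount cannot change a sign. The count of members called higher was 3 of 10 except in 3 settings. With a floor of 250, which left out Gadd45a and Btg2, it was 2, against 298 of 3118 genes. At a 4-fold threshold it was 2 of 10, against 3.11% of all genes. At 1.5-fold 6 of 10 were higher and 1 lower, against 16.7% and 17.7% of all genes. Over all genes the counts higher and lower were 498 and 171 with a pseudocount of 50, 298 and 147 with a floor of 250, 1255 and 796 without any floor, 1425 and 1511 at 1.5-fold, and 266 and 55 at 4-fold, since these settings admit other genes or other ratios. The median of the list of p53 regulators went from 0.00 to 0.077 when the median of all genes was set to 0. That of the repair and metabolic list, 0.00 as reported, was −0.30 without a floor and 0.05 with a floor of 250. Siva1, at exactly 2-fold as reported, did not count as lower with a pseudocount of 50, a floor of 250, the median of all genes set to 0 or the length trend removed. The list of p53 regulators had 0 genes higher and 0 lower with a pseudocount of 50, and 0 higher and 2 lower with a floor of 250. In the list repressed through p21 and DREAM the lower count was 3 with a pseudocount of 50 and 3 with centring. The p53 sites were searched with 1 and 3 mismatches, which gave 2 and 3 members. The 2 kb and 5 kb windows were not run. Depth is unknown, so no counting error could be given.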
